A study of Drosophila melanogaster with 12 samples.

Results

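The genes described here make, package and take up dopamine in the fly, together with the transcription factor Fer2. The list held 8 genes, namely ple, Ddc, Pu, Sptr, Vmat, DAT, Catsup and Fer2, chosen by name among 11982 genes that have a probe set annotated with a single symbol. They were represented by 11 of 18769 probe sets, 4 of them for Vmat and 1 for each of the others. Where a gene had several, the one with the highest mean over the 12 arrays stands for it and the others are given beside it.

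Dopamine is made from tyrosine in a pair of steps, hydroxylation and decarboxylation, and the hydroxylation needs the cofactor tetrahydrobiopterin, which is made from GTP. A vesicular transporter loads the amine into synaptic vesicles, and a transporter of the plasma membrane takes it back up after release. Fer2 is a bHLH transcription factor known in Drosophila for its part in the development and survival of dopaminergic neurons, and parkin is a ubiquitin ligase whose loss in flies damages mitochondria.

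The samples were pools of 115 green fluorescent neurons sorted by flow cytometry from dissociated adult Drosophila melanogaster brains, with at least 15 brains per pool. There were 4 groups of 3 pools: dopaminergic neurons of parkin null mutants, dopaminergic neurons of controls, cholinergic neurons of parkin null mutants and cholinergic neurons of controls. The driver of the fluorescent protein, the alleles of parkin, the control genotype, and the sex and age of the flies are not given in the sources used here, and parkin itself was not analysed here. Brains were digested with trypsin in a warm incubation before sorting, and cDNA was amplified from each pool and hybridised to 1 Affymetrix Drosophila 2.0 array. Values are log2 intensities as the authors deposited them, so that a difference of 1 is a doubling of intensity. Levels of different genes cannot be set against each other on this scale, since each probe set has its own brightness. Nothing in the labels tells if pools of the same group came from flies raised apart, and the p-values measure the spread between these arrays alone.

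The array of mutant dopaminergic pool 3 stood apart. On it 1627 probe sets reached a log2 level of 8, against 2182 to 3307 on the other arrays, and its correlation with them over all probe sets was 0.26 to 0.53. Of 730 probe sets that reached 8 on at least 10 of the other arrays, 70.0% were below 8 on it. The same share was 20.1% on mutant dopaminergic pool 1, 11.8% on control cholinergic pool 2 and 4.15% to 6.03% on the rest. The pan-neuronal gene elav stood at 6.27 on mutant dopaminergic pool 3, and the synaptic vesicle gene nSyb at 10.65. Differences that this array enters are therefore also given without it, where leaving it out turned or clearly moved them. ChAT, a defining gene of cholinergic neurons, was at 9.28 to 11.39 in control dopaminergic pools and 9.72 to 11.21 in control cholinergic pools. VAChT, the vesicular acetylcholine transporter, stood at 5.49, 8.16 and 4.87 in mutant dopaminergic pools, 9.74, 9.34 and 6.01 in control dopaminergic pools, 10.03, 9.71 and 10.88 in mutant cholinergic pools and 9.79, 8.54 and 10.38 in control cholinergic pools. Its sort difference was -4.03 ± 1.16 in mutants and -2.62 ± 0.82 averaged over genotypes (SE; limma adjusted p = 0.450 and 0.672). In mutants the sorts did not overlap in it, where 3.18% of all 18769 probe sets were lower in the dopaminergic sort without overlap. The mean level of the cholinergic markers was 5.46 to 10.29 in mutant dopaminergic pools, 9.50 to 10.86 in control dopaminergic pools, 10.46 to 10.92 in mutant cholinergic pools and 7.99 to 10.71 in control cholinergic pools. In controls the sorts overlapped in the mean level of these markers, whereas in mutants the dopaminergic pools all lay below the cholinergic ones. The genes of dopamine synthesis are the result described below and so give no separate check of the dopaminergic label.

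ple encodes tyrosine hydroxylase, the rate-limiting enzyme of dopamine synthesis and the usual marker of dopaminergic neurons in Drosophila. It stood at 7.01, 10.94 and 4.36 in mutant dopaminergic pools, at 10.39, 10.56 and 10.57 in control dopaminergic pools, at 3.64, 3.78 and 3.78 in mutant cholinergic pools and at 3.77, 4.18 and 3.61 in control cholinergic pools. All 6 dopaminergic pools were above all 6 cholinergic pools, by the narrowest margin on mutant dopaminergic pool 3. The control dopaminergic pools lay close together, at 10.50 ± 0.10 (SD, n = 3), whereas the mutant ones ranged from the control level down to near the cholinergic level, at 7.44 ± 3.31 (SD, n = 3). Among all probe sets of its own array, ple stood at the 76.2nd, 96.9th and 8.8th percentile in mutant dopaminergic pools and between the 95.6th and 95.7th in control dopaminergic pools. It did not exceed the 10.4th percentile in any cholinergic pool. ple reached its array's median on 5 arrays, all of them dopaminergic, so that it entered the test through that sort alone.

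Ddc encodes aromatic L-amino acid decarboxylase, which makes dopamine from L-DOPA and serotonin from 5-hydroxytryptophan. Its level was 11.37, 11.19 and 6.32 in mutant dopaminergic pools, 11.33, 11.29 and 11.82 in control dopaminergic pools, 10.87, 11.24 and 9.37 in mutant cholinergic pools and 9.81, 8.65 and 9.64 in control cholinergic pools. It was bright in both sorts and reached its array's median on all 12 arrays. Control dopaminergic pools lay above control cholinergic pools without overlap. The mutant dopaminergic and cholinergic pools overlapped, with mutant dopaminergic pool 3 the lowest of all 12.

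Pu encodes GTP cyclohydrolase, which commits GTP to the synthesis of tetrahydrobiopterin, and Sptr encodes sepiapterin reductase, which acts at the end of that pathway. Pu stood at 11.66, 11.10 and 3.81 in mutant dopaminergic pools, 10.80, 9.09 and 11.73 in control dopaminergic pools, 3.67, 9.05 and 10.06 in mutant cholinergic pools and 10.11, 5.13 and 10.59 in control cholinergic pools. It was high on 5 of 6 dopaminergic arrays, but 4 cholinergic arrays were also at 9.05 or above, so the sorts overlapped. Sptr was dim throughout, at 6.07, 5.14 and 6.01 in mutant dopaminergic pools, 5.22, 4.94 and 5.18 in control dopaminergic pools, 4.59, 5.09 and 3.98 in mutant cholinergic pools and 4.97, 4.97 and 5.10 in control cholinergic pools. It ranked between percentiles 13.1 and 52.0 of its arrays and reached the median on 1 of them, so it was not kept for the test.

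**Figure D1:**
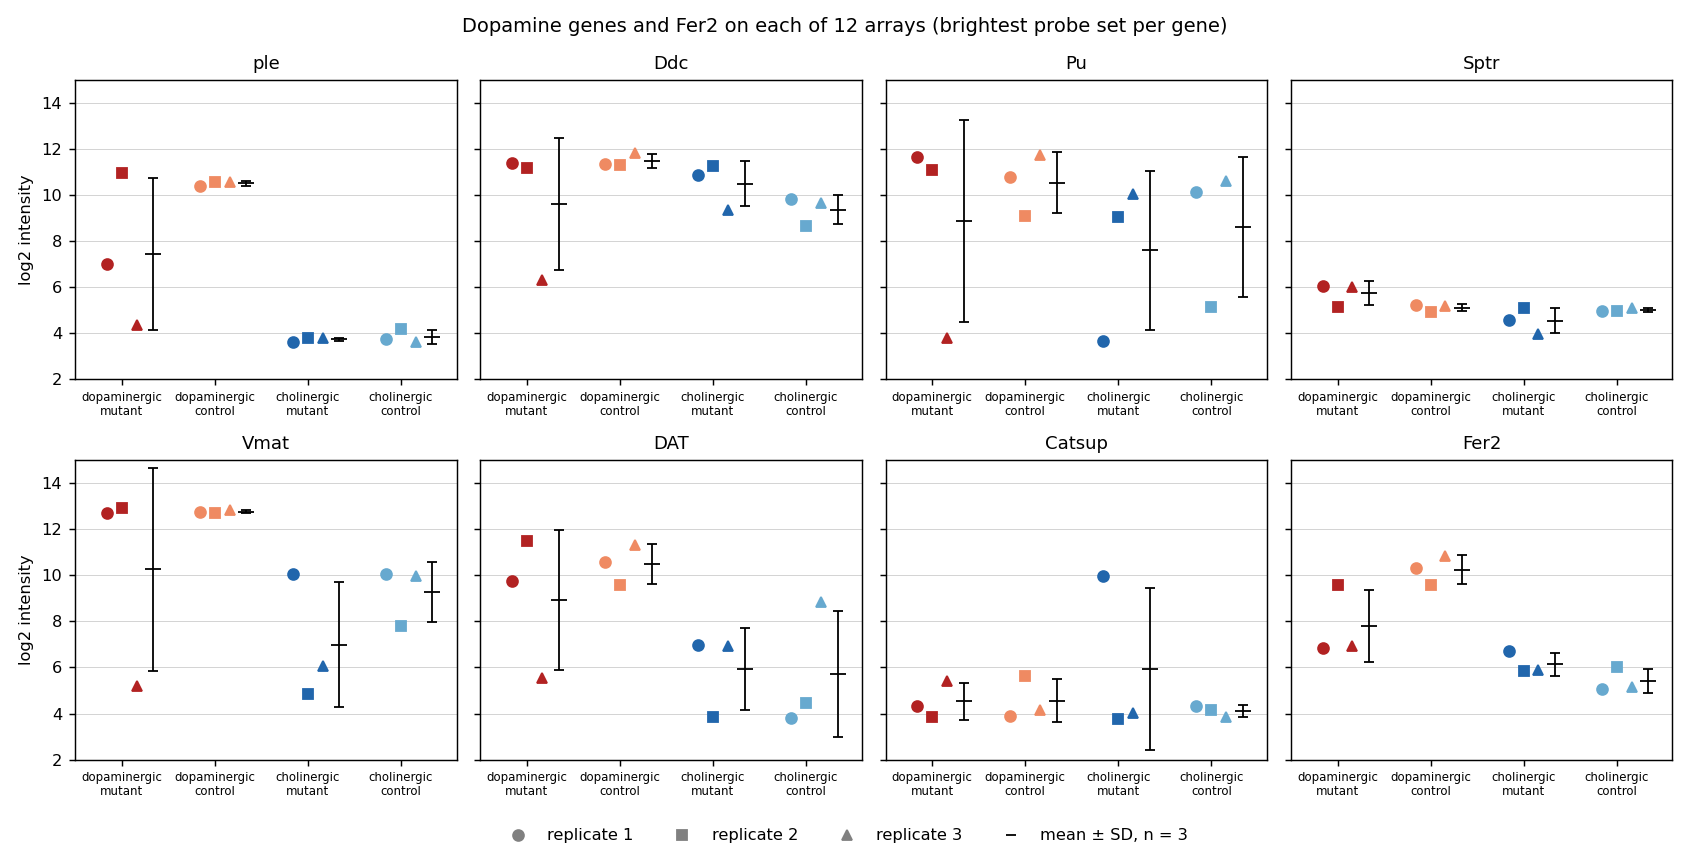
Log2 intensity (vertical axis) of the brightest probe set of each gene on all 12 arrays, by group, with 3 pools per group as symbols and the mean ± SD beside them. ple is between 10.39 and 10.57 in the control dopaminergic pools and spreads between 4.36 and 10.94 in the mutant ones, while all cholinergic pools are at 4.18 or below.

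Vmat encodes the vesicular monoamine transporter, which serves dopamine, serotonin and octopamine neurons alike. Its brightest probe set, 1637393_at, stood at 12.71, 12.90 and 5.19 in mutant dopaminergic pools, 12.74, 12.72 and 12.82 in control dopaminergic pools, 10.04, 4.85 and 6.06 in mutant cholinergic pools and 10.06, 7.79 and 9.98 in control cholinergic pools. The control dopaminergic pools lay close together, at 12.76 ± 0.05 (SD, n = 3), and mutant dopaminergic pools 1 and 2 were at the same level. Mutant dopaminergic pool 3 lay inside the cholinergic range. 3 of 6 cholinergic pools were at about 10, near the 94th percentile of their arrays.

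The second-brightest probe set of Vmat, 1636275_a_at, gave another picture of mutant dopaminergic pool 1. It stood at 8.57, 11.99 and 7.71 in mutant dopaminergic pools, 12.54, 12.25 and 12.73 in control dopaminergic pools, 5.81, 6.42 and 5.19 in mutant cholinergic pools and 5.91, 6.59 and 6.33 in control cholinergic pools. On this probe set all dopaminergic pools were above all cholinergic pools, and all 3 mutant dopaminergic pools were below all 3 control ones. Relative to the lowest control dopaminergic pool, mutant dopaminergic pool 1 differed by -0.01 on the first probe set and by -3.68 on the second. The other probe sets of Vmat, 1628739_at and 1632856_s_at, were dim and not kept for the test, apart from single arrays: 8.87 on control dopaminergic pool 2 for the first and 9.12 on control dopaminergic pool 3 for the second. The transcripts that each probe set reads are not given in the sources used here.

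**Figure D2:**
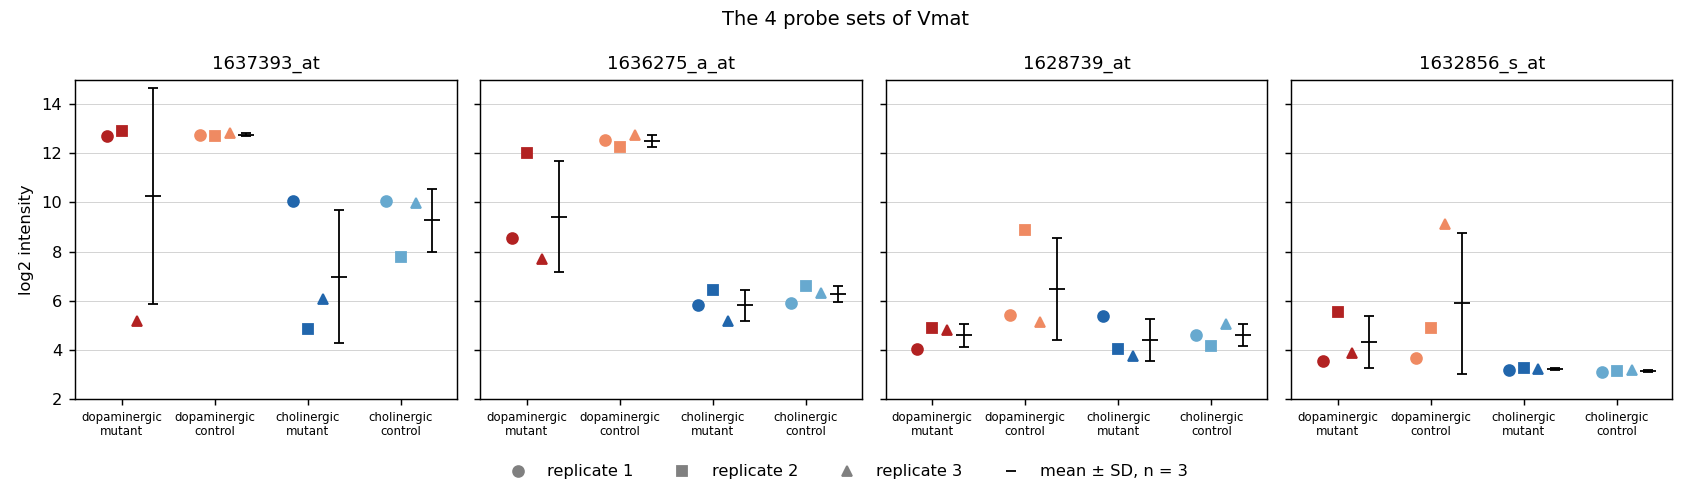
Log2 intensity (vertical axis) of the 4 probe sets of Vmat on all 12 arrays, by group, with 3 pools per group as symbols and the mean ± SD beside them. Mutant dopaminergic pool 1 is at 12.71 on 1637393_at, level with the controls, and at 8.57 on 1636275_a_at, below all of them.

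DAT encodes the dopamine transporter of the plasma membrane, which clears released dopamine. It stood at 9.77, 11.48 and 5.54 in mutant dopaminergic pools, 10.56, 9.58 and 11.33 in control dopaminergic pools, 6.95, 3.86 and 6.95 in mutant cholinergic pools and 3.82, 4.47 and 8.85 in control cholinergic pools. Mutant dopaminergic pools 1 and 2 lay within or above the control dopaminergic range. Mutant dopaminergic pool 3 lay within the cholinergic range. Catsup, which encodes a zinc transporter family protein known in Drosophila as a negative regulator of tyrosine hydroxylase, was dim on every array but 1. It stood at 4.32, 3.84 and 5.43 in mutant dopaminergic pools, 3.90, 5.62 and 4.16 in control dopaminergic pools, 9.97, 3.75 and 4.04 in mutant cholinergic pools and 4.33, 4.16 and 3.85 in control cholinergic pools. The single high value, in mutant cholinergic pool 1, was at the 93.9th percentile of its array, and Catsup was not kept for the test.

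Fer2 stood at 6.84, 9.587 and 6.92 in mutant dopaminergic pools, 10.31, 9.595 and 10.82 in control dopaminergic pools, 6.72, 5.84 and 5.87 in mutant cholinergic pools and 5.05, 6.02 and 5.16 in control cholinergic pools. All dopaminergic pools were above all cholinergic pools, though mutant dopaminergic pools 1 and 3 exceeded mutant cholinergic pool 1 by little. By percentile within the array, mutant dopaminergic pool 3 was below mutant cholinergic pool 1, at 68.6 against 72.2. The mutant dopaminergic pools were below all control ones, but mutant pool 2 missed the lowest control by only 0.01. Pools 1 and 3 lay 2.76 and 2.68 below that control. Group means were 7.78 ± 1.56 in mutant dopaminergic, 10.24 ± 0.62 in control dopaminergic, 6.14 ± 0.50 in mutant cholinergic and 5.41 ± 0.53 in control cholinergic pools (SD, n = 3 each). The mutant cholinergic pools and control cholinergic pools overlapped.

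**Figure D3:**
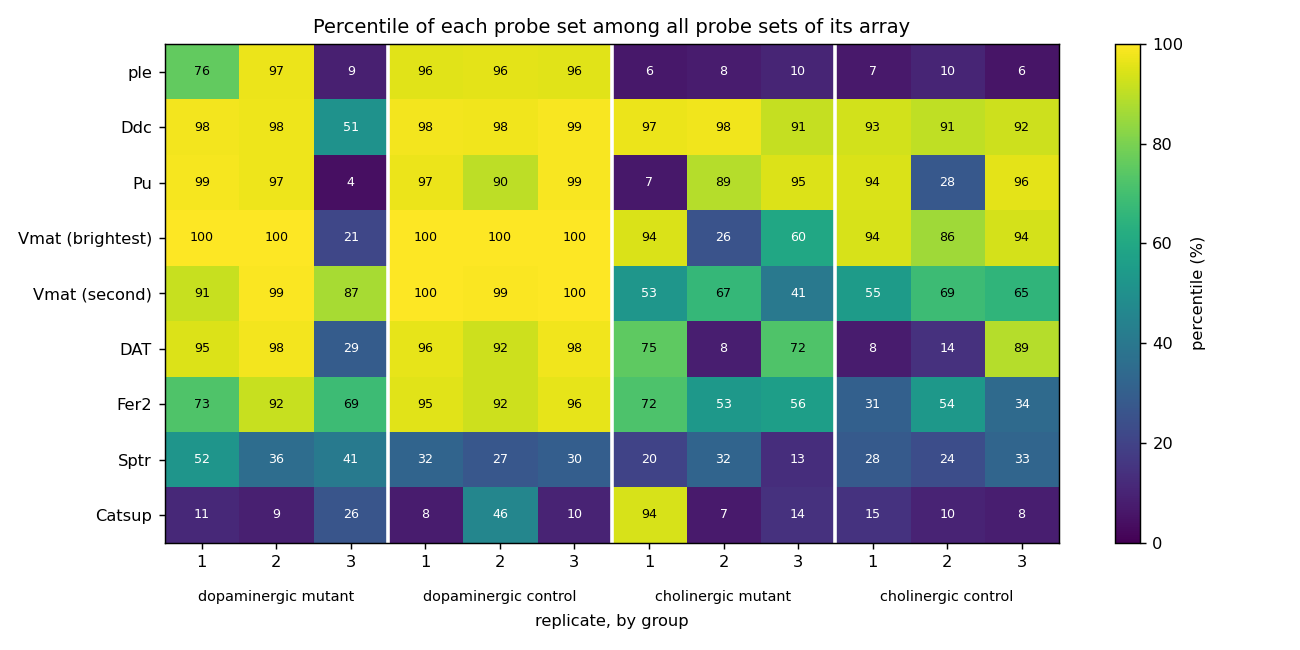
Percentile of each probe set among all probe sets of the same array (colour and number, in percent), with the 12 arrays as columns in 4 groups and the genes as rows. Vmat (brightest) is 1637393_at and Vmat (second) is 1636275_a_at. In mutant dopaminergic pool 3 ple is at the 8.8th percentile, against at least the 95.6th in all control dopaminergic pools.

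The first comparison asked whether these genes separated the dopaminergic from the cholinergic sort. No member passed an adjusted p of 0.05 in limma in the average over both genotypes, where 0 of 12460 probe sets did. ple was 5.18 ± 0.84 higher in the dopaminergic sort on the log2 scale (SE; limma adjusted p = 0.128, or 0.138 with every probe set tested). Since ple entered the test through the dopaminergic arrays alone, its difference is a description and its p supports nothing. Fer2 was 3.23 ± 0.54 higher (SE; limma adjusted p = 0.129, 9th of 12460 by p), and the second probe set of Vmat was 4.92 ± 0.70 higher (SE; limma adjusted p = 0.128, 1st). No probe set had an adjusted p below 0.128. DAT differed by 3.89 ± 1.17 (limma adjusted p = 0.663), the first probe set of Vmat by 3.38 ± 1.37 (0.672), Pu by 1.60 ± 1.64 (0.734) and Ddc by 0.63 ± 0.86 (0.794), all SE and all with the dopaminergic mean the higher.

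On log2 values of the brightest probe sets, dopaminergic pools lay above cholinergic pools in both genotypes without any overlap for 2 of the 8 genes, ple and Fer2. Such a separation was found for 0.33% of all 18769 probe sets. By percentile within the array it held for neither gene. On mutant dopaminergic pool 3 ple was at the 8.8th percentile, against the 10.4th on control cholinergic pool 2. Fer2 was there at the 68.6th, against the 72.2nd on mutant cholinergic pool 1. When mutant dopaminergic pool 3 was left out, 4 genes separated on log2 values, with DAT and Vmat added, against 0.4% of probe sets. At an unadjusted p of 0.05, 3 of the 5 tested genes other than ple were higher, DAT, Vmat and Fer2, as were 3.36% of all tested probe sets. The median difference of those 5 was 3.23, against 0.17 over all tested probe sets. In the fit without mutant dopaminergic pool 3, ple differed by 5.94 with a limma adjusted p of 0.0305, and it was the 1 probe set called of 12460. That call supports nothing either, since ple entered the test through the dopaminergic arrays alone. Without mutant dopaminergic pool 2, 27 of 12460 were called, among them ple at 4.30 (limma adjusted p = 0.00581), Fer2 at 2.78 (limma adjusted p = 0.0345) and the second probe set of Vmat at 4.28 (limma adjusted p = 0.00581). The same limit holds for the call of ple there. That fit kept mutant dopaminergic pools 1 and 3. Of the probe sets that reached 8 on at least 10 of the other arrays, 20.1% and 70.0% were below 8 on these. Within one pool, fewer cells that express a gene and less of its RNA per cell cannot be told apart.

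The difference between the sorts was next read in each genotype separately, which gave comparisons that share no array. In mutants no member was called, against 0.0161% of probe sets, and in controls none was called, against 0% of probe sets. In mutants ple differed by 3.70 ± 1.19, Fer2 by 1.64 ± 0.77 and the second probe set of Vmat by 3.62 ± 0.99 (SE; limma adjusted p = 0.450, 0.450 and 0.437). In controls ple differed by 6.65 ± 1.19, Fer2 by 4.83 ± 0.77 and the second probe set of Vmat by 6.23 ± 0.99 (SE; limma adjusted p = 0.251, 0.149 and 0.149). DAT differed by 3.01 ± 1.65 in mutants and by 4.78 ± 1.65 in controls, and the first probe set of Vmat by 3.28 ± 1.94 in mutants and 3.49 ± 1.94 in controls (SE). Ddc differed by -0.86 ± 1.22 in mutants and by 2.11 ± 1.22 in controls (SE), so that its mean was lower in the dopaminergic sort in mutants, and Pu differed by 1.26 ± 2.32 in mutants and 1.93 ± 2.32 in controls (SE).

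The differences in mutants depended on single arrays. With mutant dopaminergic pool 3 left out they were 5.24 for ple, 2.07 for Fer2, 4.47 for the second and 5.81 for the first probe set of Vmat, 4.70 for DAT, 3.79 for Pu and 0.79 for Ddc, so that Ddc turned direction. With mutant dopaminergic pool 2 left out they were 1.95 for ple, 0.73 for Fer2, 2.33 for the second and 1.96 for the first probe set of Vmat, 1.73 for DAT, 0.14 for Pu and -1.64 for Ddc. None of these passed in limma, where 1 of 12460 probe sets was called without pool 3 and 112 without pool 2.

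On log2 values of the brightest probe sets, 3 of 8 genes lay higher in the dopaminergic sort without overlap in mutants, ple, Sptr and Fer2, where 11.3% of all 18769 probe sets did. In controls 5 of 8 did, ple, Ddc, Vmat, DAT and Fer2, where 5.01% of them did. By percentile within the array, ple and Fer2 overlapped in mutants. With mutant dopaminergic pool 3 left out, the mutants gave 6 of 8, ple, Sptr, DAT, Vmat, Fer2 and Pu, against 13.2% of all probe sets. At an unadjusted p of 0.05, 0 of the 5 tested genes other than ple were higher in mutants and 2 in controls, DAT and Fer2, against 6.16% and 1.96% of the tested probe sets. The median difference of those 5 was 1.64 in mutants and 3.49 in controls, against 0.27 and 0.05 over all tested probe sets. Without mutant dopaminergic pool 2, which enters the controls' comparison only through the shared estimate of spread, ple, Fer2 and the second probe set of Vmat passed in controls (limma adjusted p = 0.00321, 0.00914 and 0.00321) among 5 of 12460 probe sets called. The pass of ple supports nothing, given how it entered the test.

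**Figure D4:**
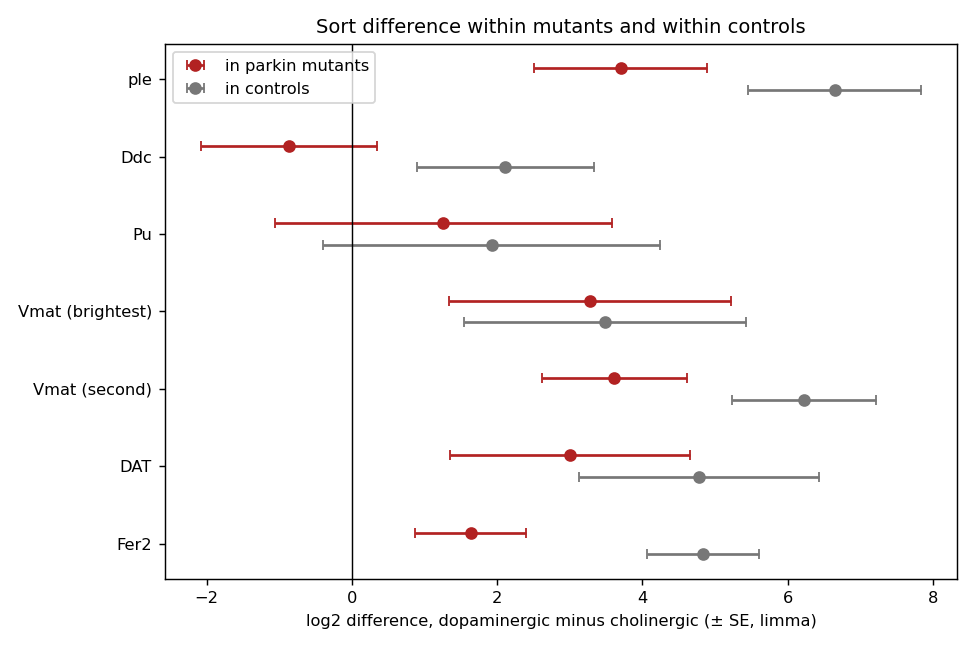
Log2 difference, dopaminergic minus cholinergic (horizontal axis), of each tested gene in parkin mutants and in controls, with bars of ± 1 SE from limma and 3 pools on each side. Vmat (brightest) is 1637393_at and Vmat (second) is 1636275_a_at. ple differs by 3.70 in mutants and 6.65 in controls, and Ddc lies below 0 in mutants at -0.86.

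The next comparison was between parkin null mutants and controls within the dopaminergic sort. All 6 tested genes had a lower mean in mutants, and none passed in limma, where 0% of probe sets did. The difference was -3.07 ± 1.19 for ple and -2.46 ± 0.77 for Fer2 (SE; limma adjusted p = 0.935 and 0.835, unadjusted p = 0.0257 and 0.00833). Of the 5 tested genes other than ple, 1 was lower at an unadjusted p of 0.05, namely Fer2, as were 2.89% of tested probe sets. The 95% interval was -5.69 to -0.45 for ple and -4.15 to -0.77 for Fer2. These intervals and p-values use the spread shared by all 4 groups. With only the groups compared in the fit, the SE was 1.62 for ple and 1.05 for Fer2 (limma adjusted p = 0.917 each). The second probe set of Vmat differed by -3.08 ± 0.99 and the first by -2.50 ± 1.94 (SE; limma adjusted p = 0.904 and 0.935). Ddc differed by -1.85 ± 1.22, Pu by -1.68 ± 2.32 and DAT by -1.56 ± 1.65 (SE; limma adjusted p = 0.935 each). The median of the 5 tested genes other than ple was -1.85, against 0.18 over all tested probe sets, 59.7% of which had a higher mean in mutants.

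By the brightest probe sets, Fer2 was the only one of the 8 genes whose mutant and control dopaminergic pools did not overlap, where 2.04% of all 18769 probe sets were lower in mutants without overlap. Of the further probe sets of Vmat, 1636275_a_at and the dim 1628739_at were also lower without overlap. The separation of Fer2 rested on the 0.01 between mutant dopaminergic pool 2 and control dopaminergic pool 2, and the same holds without mutant dopaminergic pool 3, where 4.92% of all probe sets were lower without overlap. The differences of the other genes depended on mutant dopaminergic pool 3. Without it the first probe set of Vmat differed by 0.04, DAT by 0.13 and Pu by 0.84, all with the mutant mean the higher, and Ddc by -0.20. ple then differed by -1.53, Fer2 by -2.03 and the second probe set of Vmat by -2.22, none of which passed. Without mutant dopaminergic pool 2 instead, the differences were -4.82 for ple, -3.36 for Fer2 and -4.36 for the second probe set of Vmat. All of these passed (limma adjusted p = 0.0120, 0.0324 and 0.0164) among 74 of 12460 probe sets called. That fit kept only mutant dopaminergic pools 1 and 3. Of the probe sets that reached 8 on at least 10 of the other arrays, 20.1% and 70.0% were below 8 on these. On pool 2 this share was 5.87%. ple had entered the test through the dopaminergic arrays alone, so its pass supports nothing. Beside these, the mean level of the pan-neuronal markers ranged from 5.90 to 10.85 in mutant dopaminergic pools and from 10.04 to 10.95 in control dopaminergic pools, with its lowest value on pool 3. Low marker values were not confined to pool 3. Without it the mutant difference was -3.44 for Syn, -2.64 for Snap25, -0.95 for CadN and -0.59 for brp. It was 0.93 for elav and 0.38 for nSyb, and none of these passed. The part of the marker level in the differences was not tested.

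Mutant dopaminergic pools 1 and 2 also differed from each other by gene. In pool 1 ple was 3.38 and Fer2 2.76 below the lowest control dopaminergic pool, while Ddc, DAT and Pu were 0.09, 0.19 and 2.57 above it. In pool 2 ple was 0.54, DAT 1.90 and Pu 2.01 above the lowest control, and Ddc lay below it by 0.10. Pool 3 was below the lowest control by 6.03 in ple, 2.68 in Fer2, 4.96 in Ddc, 4.04 in DAT, 5.28 in Pu and 7.53 in the first probe set of Vmat. Among the members, the low values of pool 3 thus ran across all 6 tested genes, whereas those of pool 1 were in ple, Fer2 and the second probe set of Vmat. Pool 1 was not low in these genes alone. Of the probe sets that reached 8 on at least 10 of the other arrays, 20.1% were below 8 on it.

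The sample titles begin with a code whose meaning is not given in the sources used here, and codes with the letter D occur in 1 mutant dopaminergic, 1 control dopaminergic and 2 control cholinergic pools. Within these D codes, mutant pool minus control pool was -3.55 for ple, -2.76 for Fer2, -0.01 for the first probe set of Vmat, 0.19 for DAT, 0.09 for Ddc and 2.57 for Pu, with 1 dopaminergic pool on each side and so no test. Among the other codes, with 2 pools on each side, the differences were -2.83 for ple, -2.31 for Fer2, -3.74 for the first probe set of Vmat, -2.44 for DAT, -2.82 for Ddc and -3.81 for Pu. The second probe set of Vmat differed by -3.68 within the D codes and by -2.78 among the others. For this probe set, ple and Fer2 the mutant value or mean was lower in both, and the pool that stood apart is among the other codes. There mutant dopaminergic pool 2 was at 10.94 in ple, above the control pools of those codes at 10.39 and 10.57. The lower mean of ple among these codes thus came from mutant dopaminergic pool 3 alone. In Fer2 pool 2 was at 9.587 against 10.31 and 10.82, and in the second probe set of Vmat at 11.99 against 12.54 and 12.73. The mutant dopaminergic pool with a D code is pool 1. On it 20.1% of the probe sets that reached 8 on at least 10 of the other arrays were below 8.

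**Figure D5:**
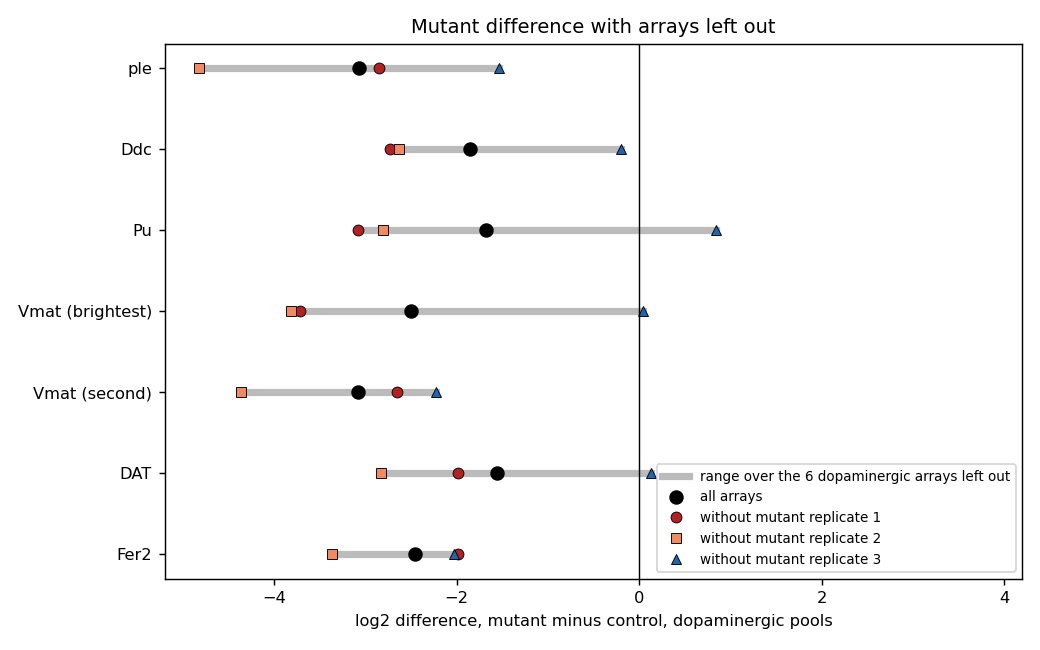
Log2 difference, mutant minus control, in dopaminergic pools (horizontal axis) with all arrays and with each mutant dopaminergic pool left out, with a grey bar for the range over the 6 dopaminergic arrays left out one at a time. Vmat (brightest) is 1637393_at and Vmat (second) is 1636275_a_at. Without mutant replicate 3 the values of Pu, Vmat (brightest) and DAT lie above 0. Those of ple, Fer2, Vmat (second) and Ddc remain below 0 in every case, Ddc at -0.20 without mutant replicate 3.

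In the cholinergic sort, the difference of mutants minus controls in ple was -0.12 ± 1.19 (SE), with a 95% interval of -2.74 to 2.50. No member was called in limma, where 0.0482% of probe sets were, and none was under an unadjusted p of 0.05, against 4.57% of probe sets. The first probe set of Vmat differed by -2.29 ± 1.94, Ddc by 1.13 ± 1.22, Pu by -1.01 ± 2.32, Fer2 by 0.73 ± 0.77 and DAT by 0.21 ± 1.65 (SE; limma adjusted p of 0.939 to 0.986). By the brightest probe sets, no gene's mutant and control cholinergic pools were free of overlap, whereas 9.01% of all 18769 probe sets were lower and 3.01% higher without overlap. The dim 1632856_s_at of Vmat was higher in mutants without overlap, by 0.07. The median of the 5 tested genes other than ple was 0.21, against -0.17 over all tested probe sets.

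Whether the mutation moved the members more in one sort than in the other was tested by the difference of the mutant effects, dopaminergic minus cholinergic. It was -3.19 ± 1.09 for Fer2, -2.98 ± 1.72 for Ddc, -2.95 ± 1.69 for ple, -1.77 ± 2.34 for DAT, -0.67 ± 3.28 for Pu and -0.21 ± 2.74 for the first probe set of Vmat (SE). None passed in limma, where 0% of probe sets did, and only Fer2 was under an unadjusted p of 0.05 (0.0133; limma adjusted p = 0.773), where 3.07% of probe sets were lower. Without mutant dopaminergic pool 3 it was -2.76 for Fer2, -1.33 for Ddc, -1.41 for ple, -0.08 for DAT, 1.86 for Pu and 2.33 for the first probe set of Vmat, and none passed. An effect of the mutation that differs between the sorts was thus not detectable for these genes with 3 pools a group.

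The genes closest to ple and Fer2 were sought by the root mean square difference of log2 profiles over the 12 arrays, each profile centred on its own mean, among 7595 genes. The nearest to ple were CG13330 at 0.87, sgl, which encodes UDP-glucose dehydrogenase, at 1.60 and JhI-21, an amino acid transporter, at 1.61, where the median gene was at 3.26. The same 3 genes were nearest without mutant dopaminergic pool 3. The nearest to Fer2 were Rga, a subunit of the CCR4-NOT complex, at 1.15, Dark, the fly Apaf-1 protein, at 1.18 and Pngl, a peptide N-glycanase, at 1.19, where the median gene was at 2.23. Once mutant dopaminergic pool 3 was left out, they were Arl6 at 1.18, Rga at 1.20 and Dark at 1.23, so that Pngl was no longer among them. Among the members, Fer2 and ple were the closest pair, at 1.37, followed by DAT with Fer2 at 1.72. All of these profiles share the same arrays and are given as a description.

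The wider pathway was read from a list of 27 genes: those for tetrahydrobiopterin and aromatic hydroxylation, dopamine conversion, the synthesis and transport of other monoamines, dopamine receptors and relatives of the members. Of these 22 had a probe set and 10 were tested, and 0 of the 10 passed in any of the 6 comparisons in limma. At an unadjusted p of 0.05, the sort difference had 1 higher and 1 lower in mutants (amd and Dop1R1), against 6.16% and 4.34% of all tested probe sets, and 1 lower in controls and in the average over genotypes (Hdc in both), against 1.67% and 3.25%. The mutant difference had 1 higher in dopaminergic pools (Gat) and 1 higher in cholinergic pools (Dop1R1), against 1.61% and 2.87%, and the difference of the mutant effects had 1 lower (Dop1R1), against 3.07%. Hdc encodes histidine decarboxylase, which makes histamine and is a relative of Ddc. It stood at 3.78, 5.31 and 4.66 in mutant dopaminergic pools, 5.17, 3.39 and 4.30 in control dopaminergic pools, 6.64, 5.17 and 6.93 in mutant cholinergic pools and 9.79, 5.12 and 6.29 in control cholinergic pools. Its difference between the sorts was -2.22 ± 0.74 (SE; limma adjusted p = 0.672), and the groups overlapped. Dop2R, a D2-type dopamine receptor, differed by -2.71 ± 1.35, amd, a relative of Ddc, by 0.49 ± 0.31 and pr, which encodes 6-pyruvoyl tetrahydropterin synthase, by 0.68 ± 1.01 (SE; limma adjusted p = 0.672, 0.672 and 0.808). With mutant dopaminergic pool 3 left out these were -2.24 for Hdc, -1.52 for Dop2R, 0.26 for amd and 1.08 for pr.

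Gat encodes the GABA transporter and is known in the fly brain from astrocyte-like glia. It stood at 12.15, 9.24 and 5.43 in mutant dopaminergic pools, against 4.74, 3.71 and 4.43 in control dopaminergic pools, a difference of 4.65 ± 1.84 (SE; limma adjusted p = 0.935). These groups did not overlap, where 6.47% of all 18769 probe sets were higher in mutants without overlap. Without mutant dopaminergic pool 3 the difference was 6.40 (limma adjusted p = 0.928). Gat also reached 9.25 on mutant cholinergic pool 1 and 9.80 on control cholinergic pool 1. The mean of the glial markers was 4.54 to 6.16 in mutant dopaminergic pools, 4.14 to 6.01 in control dopaminergic pools, 5.59 to 7.26 in mutant cholinergic pools and 4.77 to 6.82 in control cholinergic pools. repo, which defines glia, was at 7.39 on mutant dopaminergic pool 2, at 5.73 on mutant cholinergic pool 2 and at 3.09 or below elsewhere. The part of glial RNA in these values was not tested.

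Dop1R1, a D1-type dopamine receptor, stood at 8.25, 8.02 and 4.85 in mutant dopaminergic pools, 8.31, 8.64 and 9.42 in control dopaminergic pools, 10.55, 9.83 and 10.89 in mutant cholinergic pools and 8.47, 8.64 and 6.39 in control cholinergic pools. Mutant cholinergic pools were above both the mutant dopaminergic and the control cholinergic pools without overlap, where 3.18% and 3.01% of all 18769 probe sets were. The difference of dopaminergic minus cholinergic mutants was -3.38 ± 1.00 and that of mutant minus control cholinergic pools 2.59 ± 1.00 (SE; limma adjusted p = 0.450 and 0.939). In dopaminergic pools, mutant minus control was -1.75 ± 1.00 for Dop1R1, -1.90 ± 1.91 for Dop2R and 0.50 ± 0.44 for amd (SE; limma adjusted p = 0.935 each). None of these passed. With mutant dopaminergic pool 3 left out, the sort difference of Dop1R1 in mutants was -2.29, and mutant minus control dopaminergic pools was -0.66 for Dop1R1, 0.48 for Dop2R and 0.04 for amd, so that Dop2R turned direction.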

How the data were processed

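The authors deposited 1 table of log2 intensities per probe set for 12 Affymetrix Drosophila 2.0 arrays. Per the labels' protocols, RNA of each sorted pool was amplified with the Ovation One-Direct system and labelled with the Encore biotin module. The normalization and summarisation of the deposited values are not given in the sources used here, and no further scaling was applied. Array medians ran from 5.59 to 6.30. Of 18952 rows, 183 control probe sets were left out. Of 18769 used, 13647 had 1 gene symbol in the platform annotation, 402 several and 4720 none, and only the first were named. The test took the 12460 probe sets that reached the median of their own array on 3 or more arrays. Differences were fitted with limma 3.58.1 in R 4.3.3 (lmFit, eBayes with a trend, 2-sided), with 1 coefficient for each group and all arrays in the fit. p-values were adjusted by Benjamini-Hochberg within each of 6 comparisons over all kept probe sets, at a threshold of 0.05. Values of genes outside that filter carry no test. The fit was tested on simulated data. The members, gene lists and alternatives were chosen with earlier results of these data known. Samples carry no replicate number in the labels, so pools are numbered in accession order. Named were the members, their nearest 3 genes, and of the pathway list those with the smallest p in each direction and any that pass. The number of arrays limits the precision.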

Additional observations from a re-analysis of the deposited data

How the results depend on the processing

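Each log2 difference of a gene was recomputed under 23 alternatives, 12 of which left out 1 array. Of 946 such differences, 899 kept their direction and their side of the threshold, and 25 turned direction. A further 22 kept their direction and passed where they had not, calls of ple among them. None could lose a call, since none was called in the main fit. With array weights in limma, whose estimation stopped before its tolerance was reached and which gave mutant dopaminergic pools 1, 2 and 3 weights of 4.56, 0.28 and 0.41, the members called numbered 1 in the difference between sorts in mutants, 2 in controls, 2 averaged over genotypes and 2 in mutant minus control dopaminergic pools, where 620, 6, 23 and 524 of 12460 probe sets were called. The 1 called in mutants was ple, and ple was among the 2 in each of the others. With only the groups compared, 1 was called in controls, ple, the 1 probe set called there. Calls of ple support nothing here either, since it entered the test through the dopaminergic arrays alone. Leaving out 1 array gave between 0 and 2 calls in the difference between sorts in controls, in that averaged over genotypes and in mutant minus control dopaminergic pools, and 0 elsewhere. With array weights the direction turned for Ddc between sorts in mutants (0.23), Pu in mutant minus control dopaminergic pools (0.38), and Vmat (1.38) and Pu (2.40) in the difference of the mutant effects. It turned for ple in mutant minus control cholinergic pools with quantile normalization (0.033) and for DAT there with the title code as a block (-0.86). Over the arrays left out, the difference between sorts in mutants ran from -1.74 to 0.79 for Ddc and from -0.70 to 3.79 for Pu. Mutant minus control dopaminergic pools ran from -2.83 to 0.13 for DAT, -3.82 to 0.039 for Vmat and -3.08 to 0.84 for Pu. Mutant minus control cholinergic pools ran from -0.24 to 0.047 for ple, -0.74 to 1.78 for DAT and -2.75 to 0.95 for Pu. The difference of the mutant effects ran from -1.53 to 2.33 for Vmat and -2.63 to 1.86 for Pu. The cause of these changes was not tested. No paired analysis was possible because the labels give no replicate numbers. Without mutant dopaminergic pool 3, the separations without overlap, and the differences of the pathway and marker genes, both chosen after seeing the data, are given beside the results.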
